A study of Mus musculus with 9 samples.

Results

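The 9 liver apolipoprotein genes other than Apob, among 41388 genes counted in each library, were Apoa1, Apoa2, Apoa4, Apoa5, Apoc1, Apoc2, Apoc3, Apoe and Apom. They were taken by matching the Ensembl identifiers of the deposited tables to mouse symbols, and each was found once. The libraries came from the livers of male C57BL/6J mice of 3 genotypes, 3 libraries per genotype. DKO mice carried the liver deletion of Mttp together with a germline deletion of Fabp1, which affects every tissue. MttpLKO mice carried the liver deletion of Mttp alone, and control mice carried the floxed Mttp allele (Mttp f/f). All mice, controls included, received the liver carcinogen diethylnitrosamine (DEN, 25 mg/kg, intraperitoneal) at 14 days of age, ate standard chow, and gave their livers at 6 months. RNA of 3 mice was pooled for each library, so the errors given describe pools and not single mice. No DEN-free or Fabp1 single-knockout samples were analysed here, the Cre driver is not given in the sources used here, and whether tumour was sampled is not given there either.

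Apolipoproteins are the protein part of lipoproteins, the particles that carry triglyceride and cholesterol in plasma, and the liver is their main source together with the intestine. Unlike apolipoprotein B, which is built into the VLDL particle while the Mttp product loads it with lipid, the products of these 9 genes are smaller proteins of the particle surface. Several of them move between VLDL, chylomicrons and HDL. There they form the HDL scaffold, tune lipoprotein lipase, or bind the receptors that clear remnants.

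Total counts per library were 23268389 to 23429588 for DKO, 26362408 to 27918197 for MttpLKO and 24995426 to 27080442 for control. The deletions matched the labels: Mttp read 3.24 to 5.79 CPM (counts scaled to a common library size, with TMM scaling) in DKO, 6.14 to 9.78 CPM in MttpLKO and 69.4 to 181 CPM in control. Fabp1 read 50.3 to 78.0 CPM in DKO, 3379 to 4984 CPM in MttpLKO and 6060 to 6845 CPM in control. Hepatocyte markers, 8 of 8 detected, summed to 56886 to 84482 CPM in DKO, 85820 to 93340 CPM in MttpLKO and 77712 to 88279 CPM in control. MttpLKO replicate 3 stood apart, at 43.0 on the first principal component against -16.0 to 4.76 for the other 8 libraries. Its 5 B and plasma cell markers summed to 328 CPM, against 11.3 to 20.7 CPM in the others. In bulk RNA, fewer hepatocytes and less apolipoprotein RNA per hepatocyte cannot be told apart.

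The 9 genes lie at 4 places in the genome, given in the coordinates of the deposited tables. Apoa1, Apoc3, Apoa4 and Apoa5 form a cluster of 43.3 kb on chromosome 9, from 46228580 to 46271919. Apoc2, Apoc1 and Apoe lie between 19671579 and 19699166 on chromosome 7. Apoa2 is on chromosome 1 (171225054 to 171226379) and Apom on chromosome 17 (35128997 to 35132050). For 6 of the 9 genes both ends equal those of GENCODE M21 on GRCm38. The largest difference is 3482 bases, at the higher coordinate of Apoc2, which is its start because it lies on the minus strand. The build used by the submitters is not given in the sources used here.

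Apoa4 was the 1 gene of the 9 that passed the test, and it did so in 1 of 3 comparisons: it was 2.00-fold higher in DKO than in MttpLKO livers. Apoa5, its neighbour, had the next smallest p in that comparison, with a lower level in DKO, and did not pass the test. For the members with the most counts, Apoe, Apoa1 and Apoa2, every estimate was within 0.33 of 0 on the log2 scale. The comparisons ask what liver Mttp loss does, what Fabp1 loss adds, and how the doubly deleted liver stands against control. EdgeR's quasi-likelihood test with Benjamini-Hochberg adjustment over 14741 genes called 1 of the 9 (11.1%) in DKO against MttpLKO, where 0.4% of all genes were called (0.258% higher and 0.142% lower). It called 0 of 9 in MttpLKO against control, where 0.346% of all genes were called (0.224% higher and 0.122% lower), and 0 of 9 in DKO against control, where 0.332% were called (0.237% higher and 0.095% lower). At an unadjusted p under 0.05 there were 3 of the 9 in DKO against MttpLKO, against 9.1% of all genes. There were 2 of the 9 in MttpLKO against control and 4 of the 9 in DKO against control, against 6.97% and 11.2% of all genes. DESeq2 and limma-voom also called 0 of 9 in each of those comparisons. The median log2 fold change of the 9 was -0.04 in DKO against MttpLKO, -0.04 in MttpLKO against control and -0.18 in DKO against control. Over all genes it was -0.02, 0.01 and -0.002.

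**Figure D1:**
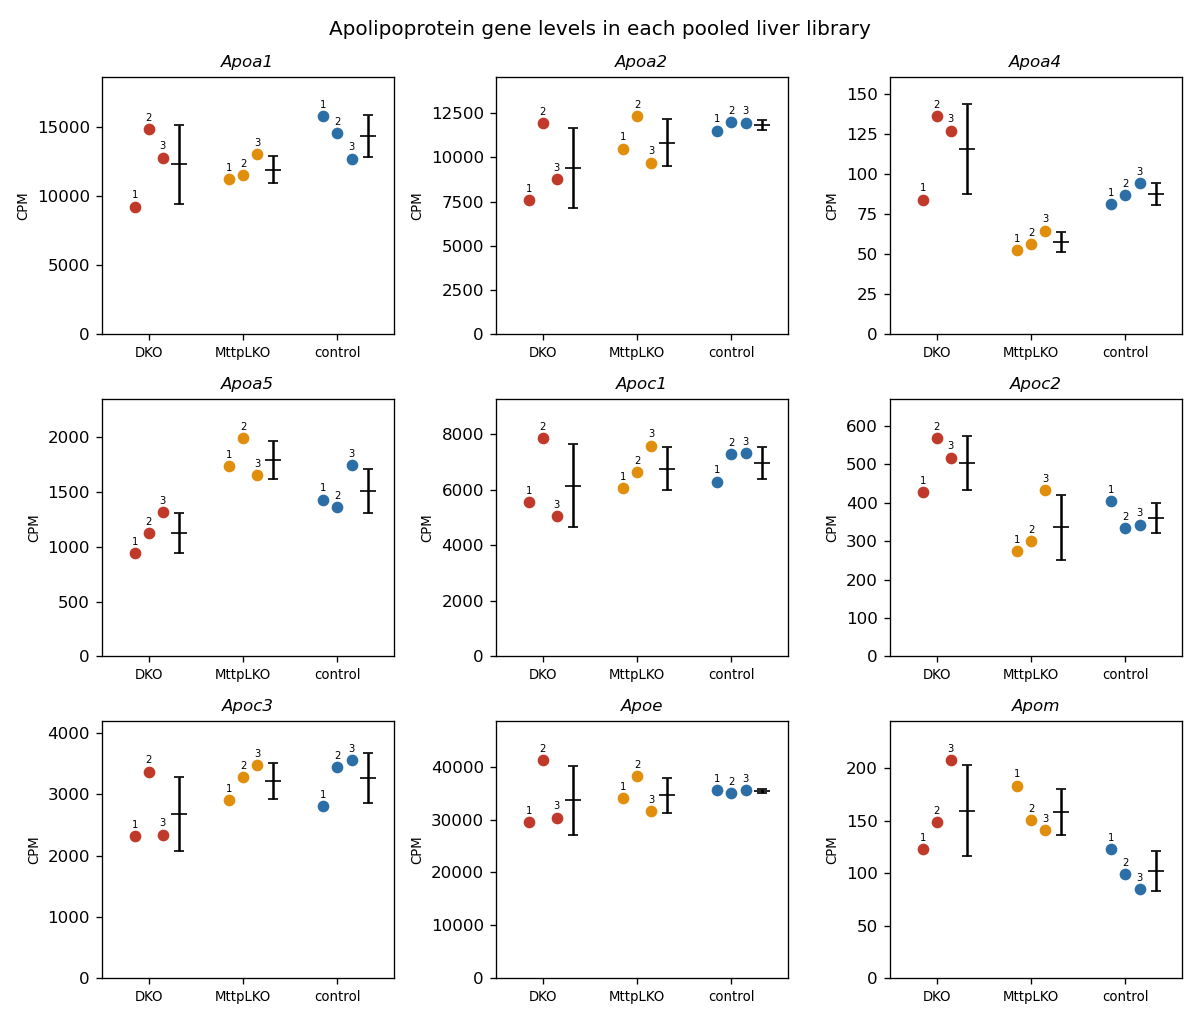
CPM of each of the 9 genes (vertical axis, from 0) in every library, with points numbered by replicate and grouped as DKO, MttpLKO and control; the bar is the mean ± SD of 3 libraries. The Apoa4 points of DKO, 84.1 to 136 CPM, all lie above those of MttpLKO, 52.4 to 64.7 CPM.

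Apoa4 encodes apolipoprotein A-IV, a component of triglyceride-rich particles and HDL that in mice is made by intestine and liver. It read 84.1, 136 and 127 CPM in the DKO libraries, 52.4, 56.4 and 64.7 CPM in MttpLKO and 81.2, 87.2 and 94.5 CPM in control. Each MttpLKO library was below each DKO and each control library, and the DKO libraries reached from within the control range to above it. The means were 116 ± 27.8 CPM in DKO, 57.8 ± 6.28 in MttpLKO and 87.6 ± 6.66 in control (SD, n = 3 each). The log2 fold change of DKO over MttpLKO was 1.00 ± 0.17 SE, with a 95% interval from 0.63 to 1.37 (edgeR adjusted p = 0.0291). MttpLKO over control was -0.60 ± 0.17 SE (edgeR adjusted p = 0.306), and DKO over control was 0.40 ± 0.17 SE (edgeR adjusted p = 0.399). Of its 1815 exon bases, 632 overlap Gm10680 on the opposite strand, a gene with 0 counts in all 9 libraries. These comparisons share libraries, and the printed intervals are not adjusted for the number of genes.

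The call in DKO against MttpLKO held in 3 of the 9 fits that left out a single library. It was lost without DKO replicate 2 or 3 (edgeR adjusted p = 0.0914 and 0.103), without MttpLKO replicate 1 or 2 (0.084 and 0.142), and without control replicate 2 or 3 (0.0644 and 0.0566). It was also lost with only the 6 libraries compared (edgeR adjusted p = 0.106). The fold change itself stayed between 0.88 and 1.19 on the log2 scale over all these settings. DKO replicate 1, the lowest DKO library for Apoa4, gave the largest fold change when left out.

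Intestinal RNA would also carry Apoa4. The enterocyte genes Alpi and Sis, which encode intestinal alkaline phosphatase and sucrase-isomaltase, had 0 counts in all 9 libraries, and Lct, the lactase gene, had 11 counts over all 9. Of the 8 enterocyte genes, the sum was 29.1 to 58.8 CPM in DKO, 30.4 to 32.2 CPM in MttpLKO and 45.4 to 58.8 CPM in control. Fabp2, which encodes the intestinal-type fatty acid-binding protein, gave most of it, with 577 to 1318 counts in DKO, 708 to 729 in MttpLKO and 1040 to 1557 in control libraries. In DKO replicates 1, 2 and 3 Fabp2 had 737, 1318 and 577 counts, beside 84.1, 136 and 127 CPM of Apoa4. Replicate 2 was thus the highest DKO library for both genes. Replicate 3 had the fewest Fabp2 counts of all 9 libraries, but these counts are not scaled to library size. Its total count, 23268389, was also the lowest of the 9, so its Fabp2 count cannot be read as a lower level than in MttpLKO. Its Apoa4, in CPM, was above that of every MttpLKO and control library. Apoa4 and Fabp2 were both lower in each MttpLKO library than in each control library. Vil1, another of the enterocyte genes, went the other way, with 13 to 19 counts in control, 21 to 43 in MttpLKO and 24 to 36 in DKO libraries. Slc5a1 had 36 to 70 counts in control, 57 to 76 in MttpLKO and 33 to 39 in DKO libraries. Cdh17 and Krt20 had 55 and 10 counts over all 9. The part of intestinal RNA in the Apoa4 result was not tested beyond these counts.

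Apoa5 lies 25.2 kb beyond Apoa4 in the same cluster. It encodes apolipoprotein A-V, a scarce plasma protein made by the liver that promotes the clearance of triglyceride by lipoprotein lipase. It read 945, 1126 and 1314 CPM in DKO, 1735, 1990.3 and 1655 CPM in MttpLKO and 1432, 1363 and 1743 CPM in control. All 3 DKO libraries lay below all libraries of the other genotypes, and the MttpLKO and control ranges overlapped. The means were 1128 ± 185 CPM in DKO, 1794 ± 175 in MttpLKO and 1513 ± 203 in control (SD, n = 3 each). The log2 fold change of DKO over MttpLKO was -0.67 ± 0.15 SE with an interval from -1.01 to -0.33 (edgeR adjusted p = 0.142). DKO over control was -0.42 ± 0.15 SE (edgeR adjusted p = 0.342), and MttpLKO over control was 0.25 ± 0.15 SE (edgeR adjusted p = 0.87). DESeq2 called Apoa5 in DKO against MttpLKO (adjusted p = 0.00333), as did edgeR with no low-count filter (adjusted p = 0.0335). These were 2 of the 9 alternatives that kept every library of the comparison. Limma-voom did not call it (adjusted p = 0.129), nor did edgeR with only the 6 libraries compared (adjusted p = 0.295). The 9 fits that left out a single library called it in 0 (edgeR adjusted p from 0.125 to 0.485).

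These 2 genes of 1 cluster had estimates of opposite sign in each comparison. In level per length (RPKM, counts scaled to gene length and library size), Apoa4 stood at 12.4%, 16.8% and 13.4% of Apoa5 in the DKO libraries. It stood at 4.19%, 3.93% and 5.43% in MttpLKO and at 7.87%, 8.87% and 7.52% in control. The ranges of the 3 genotypes did not overlap. This ratio was chosen after the values were seen and carries no test.

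**Figure D2:**
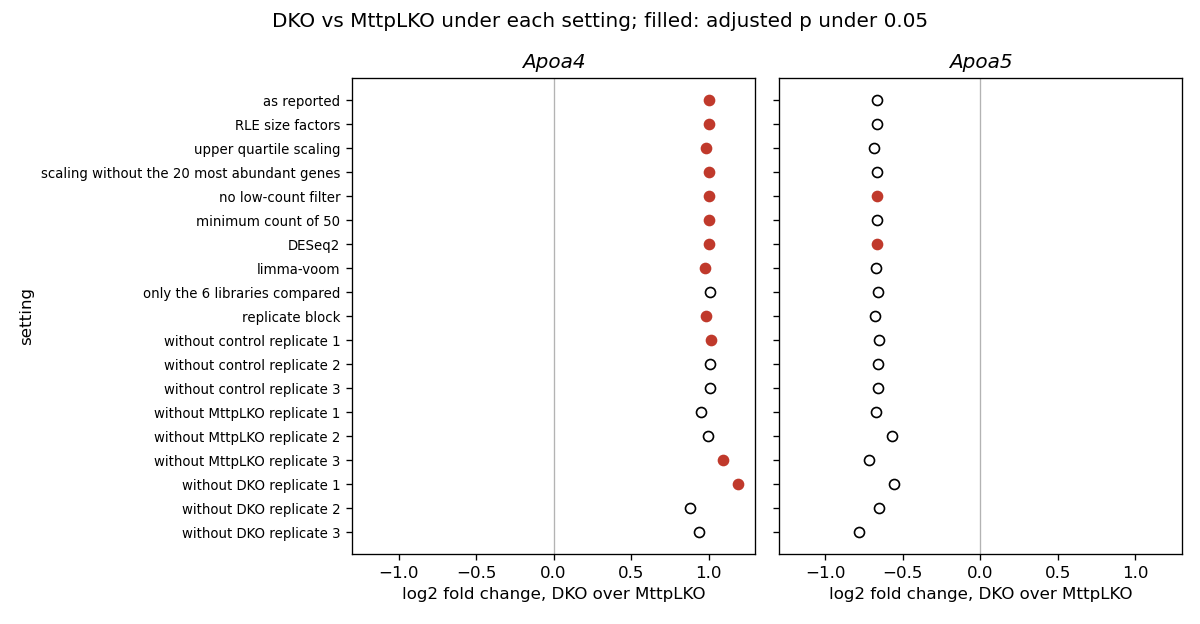
Log2 fold change of DKO over MttpLKO (horizontal axis) for Apoa4 and Apoa5 with all libraries (as reported) and under 18 alternatives (vertical axis); filled points have an adjusted p under 0.05. Apoa4 stays between 0.88 and 1.19 and Apoa5 between -0.78 and -0.56 while the filling changes.

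Start-site sequences are shown for Apoa4, Apoa5 and Apoc2, the 3 members with the smallest p in DKO against MttpLKO, where Apoa5 differed in sign from the others. They are RefSeq windows on GRCm38.p6 that run from upstream of an annotated start to just past it, written 5′ to 3′ along the gene's strand. RefSeq windows were held for 7 of the 9 genes, and where a gene had several the one nearest to the deposited start was taken. The Apoa4 window is chr9:46240594-46240893 on the plus strand, the Apoa5 window chr9:46268383-46268682 on the plus strand and the Apoc2 window chr7:19677892-19678191 on the minus strand. The start of Apoa4 in RefSeq lies 148 bases from that of the deposited table, the start of Apoa5 is the same in both, and that of Apoc2 differs by 3482 bases. Capitals mark exact matches, on either strand, to any of 6 short motifs.
Apoa4: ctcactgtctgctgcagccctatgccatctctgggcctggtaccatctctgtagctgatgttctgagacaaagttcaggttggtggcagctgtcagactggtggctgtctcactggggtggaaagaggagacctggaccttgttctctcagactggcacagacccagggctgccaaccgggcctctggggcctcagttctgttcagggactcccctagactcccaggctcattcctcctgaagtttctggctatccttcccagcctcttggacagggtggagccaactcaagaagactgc
Apoa5: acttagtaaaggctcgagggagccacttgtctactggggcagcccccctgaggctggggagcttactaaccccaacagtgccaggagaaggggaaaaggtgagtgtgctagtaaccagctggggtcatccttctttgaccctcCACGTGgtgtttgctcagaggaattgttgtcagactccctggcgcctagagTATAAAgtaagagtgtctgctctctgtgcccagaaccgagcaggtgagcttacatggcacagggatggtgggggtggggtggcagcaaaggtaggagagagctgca
Apoc2: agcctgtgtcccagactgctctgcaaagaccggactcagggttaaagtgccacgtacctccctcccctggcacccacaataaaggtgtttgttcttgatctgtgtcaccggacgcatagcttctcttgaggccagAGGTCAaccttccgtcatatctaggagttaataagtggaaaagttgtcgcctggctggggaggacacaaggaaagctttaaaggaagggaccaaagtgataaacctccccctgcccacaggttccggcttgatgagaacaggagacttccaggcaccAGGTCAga

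The motifs were the TATA box (TATAAA), the CCAAT box (CCAAT), an HNF4 site (CAAAGTCCA), the nuclear receptor half-site (AGGTCA), the E-box bound by USF factors (CACGTG) and the core of the cAMP response element (TGACGT), and no motif contains another. The Apoa5 window held TATAAA, present in 13.6% of 32851 such windows, and CACGTG, present in 7.15%. The Apoc2 window held AGGTCA at 2 places, and 16.3% of windows held that half-site at least once. CCAAT was in 37.4%, CAAAGTCCA in 0.475% and TGACGT in 7.51% of windows. The Apoa4 window held no match to the 6 strings, which says only that these letters were not in this window.

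Apoc2, Apoc1 and Apoc3 encode the small C apolipoproteins that act on lipoprotein lipase and on remnant uptake. Apolipoprotein C-II is the cofactor that lipoprotein lipase requires, and C-III and C-I hold back lipolysis and remnant clearance. Apoc2 read 428, 567 and 517 CPM in DKO, 274, 301 and 433 CPM in MttpLKO and 404, 334 and 342 CPM in control. The DKO range lay above the control range and met that of MttpLKO at replicate 3, the library that stood apart. The log2 fold change of DKO over MttpLKO was 0.59 ± 0.18 SE with an interval from 0.19 to 0.98 (edgeR adjusted p = 0.316). DKO over control was 0.49 ± 0.18 SE (edgeR adjusted p = 0.347), and MttpLKO over control was -0.10 ± 0.18 SE (edgeR adjusted p = 0.977). Over the 9 fits that left out a single library, the estimate of DKO over MttpLKO ran from 0.48 to 0.81. The edgeR adjusted p ran from 0.0547 to 0.706, and 0 of these fits called Apoc2. The highest estimate and the smallest adjusted p came without MttpLKO replicate 3.

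Macrophages also express Apoc2 and Apoe. The 10 macrophage markers, all detected, summed to 127, 142 and 62.5 CPM in DKO, 37.4, 47.2 and 109 CPM in MttpLKO and 127, 98.6 and 91.8 CPM in control. In each genotype the library with the highest sum was also the one with the highest Apoc2: DKO replicate 2, MttpLKO replicate 3 and control replicate 1. The library with the lowest sum was the one with the lowest Apoc2 in MttpLKO, but not in DKO or in control. Apoe was highest in the library with the highest sum in DKO and in control. In MttpLKO that library, replicate 3, had the lowest Apoe, at 31562 CPM. The macrophage sums of DKO and control overlapped, while their Apoc2 ranges did not. The part of these cells in the result was not tested. Apoc2 shares 112 of its 932 exon bases with Apoc4 on the same strand, and how reads there were counted is not given in the sources used here. Apoc4 itself, another C apolipoprotein gene, read 761, 1029.6 and 592 CPM in DKO, 951, 1026 and 993 CPM in MttpLKO and 845, 986 and 1071 CPM in control. Its log2 fold change of DKO over MttpLKO was -0.32 ± 0.18 SE (edgeR adjusted p = 0.648), opposite in sign to that of Apoc2.

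Apoc1 read 5553, 7840.1 and 5031 CPM in DKO, 6058, 6634 and 7581 CPM in MttpLKO and 6281, 7273 and 7319 CPM in control. Apoc3 read 2309.8, 3365 and 2337 CPM in DKO, 2896, 3274 and 3469 CPM in MttpLKO and 2799, 3441 and 3548 CPM in control. For both genes the 3 genotypes overlapped, and DKO replicate 2 stood above the other DKO libraries. The estimates of DKO over MttpLKO were -0.14 and -0.27 on the log2 scale, with intervals from -0.52 to 0.25 for Apoc1 and from -0.64 to 0.11 for Apoc3. The estimates of MttpLKO over control were -0.04 (interval -0.43 to 0.34) and -0.02 (interval -0.40 to 0.35). Those of DKO over control were -0.18 (interval -0.56 to 0.20) and -0.29 (interval -0.66 to 0.08). None passed the test, and the edgeR adjusted p ran from 0.575 for Apoc3 in DKO against control to 0.997 for Apoc3 in MttpLKO against control.

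Apoe encodes apolipoprotein E, the ligand by which remnants bind the LDL receptor and its relatives. It was the gene with the second highest count in every library, and took 3.14%, 4.13% and 2.91% of all counts in DKO, 3.28%, 3.72% and 3.23% in MttpLKO and 3.52%, 3.50% and 3.63% in control. In CPM it read 29515, 41170.4 and 30341 in DKO, 34018, 38184 and 31562 in MttpLKO and 35602, 35023 and 35518 in control. The DKO libraries were spread the most: the coefficient of variation was 19.3% in DKO, 9.68% in MttpLKO and 0.884% in control. The log2 fold changes were -0.04 for DKO over MttpLKO, -0.03 for MttpLKO over control and -0.07 for DKO over control. Their intervals ran from -0.38 to 0.30, from -0.38 to 0.31 and from -0.41 to 0.27.

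Apoa1 and Apoa2 encode the main structural proteins of HDL. Apoa1 read 9255, 14884 and 12816 CPM in DKO, 11246, 11518 and 13046 CPM in MttpLKO and 15797, 14577 and 12729.8 CPM in control. The control libraries were the highest on average, at 14368 ± 1544 CPM, against 12318 ± 2847 in DKO and 11937 ± 970.4 in MttpLKO (SD, n = 3 each), but the ranges overlapped. MttpLKO over control was -0.27 ± 0.18 SE (edgeR adjusted p = 0.878) and DKO over control was -0.22 ± 0.18 SE (edgeR adjusted p = 0.696). DKO over MttpLKO was 0.05, with an interval from -0.34 to 0.43.

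Apoa2 read 7568, 11918 and 8746 CPM in DKO, 10481, 12307 and 9687 CPM in MttpLKO and 11496, 11987 and 11949 CPM in control. The control libraries were close together, with a coefficient of variation of 2.31%, against 23.9% in DKO and 12.4% in MttpLKO. DKO over control was -0.33 ± 0.17 SE (edgeR adjusted p = 0.521), DKO over MttpLKO was -0.20 ± 0.17 SE (edgeR adjusted p = 0.77) and MttpLKO over control was -0.13 ± 0.17 SE (edgeR adjusted p = 0.968).

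Apom encodes apolipoprotein M, a lipocalin of HDL that carries sphingosine-1-phosphate. It read 123, 149 and 208 CPM in DKO, 184, 151 and 141 CPM in MttpLKO and 123, 99.0 and 85.0 CPM in control. Every library of the Mttp-deleted genotypes was above every control library, and the DKO and MttpLKO ranges overlapped. The summed markers of 2 other cell types separated the same way, which is a description and carries no test. Of all genes, 7.27% were higher without overlap in MttpLKO against control and 8.95% in DKO against control. The 5 bile duct markers summed to 75.5 to 102 CPM in DKO, 83.3 to 139 CPM in MttpLKO and 62.8 to 70.4 CPM in control. The 6 stellate cell and fibroblast markers summed to 202 to 256, 195.7 to 378 and 182 to 194.8 CPM in the same order, so MttpLKO and control nearly met. EdgeR called 0 markers of either list in each comparison. Within MttpLKO, from replicate 1 to 3, Apom fell while the bile duct sums (83.3, 93.0 and 139 CPM) and the stellate and fibroblast sums (196, 243 and 378 CPM) rose. Within DKO, in the same order, the bile duct sums rose with Apom (75.5, 81.4 and 102 CPM) and the stellate and fibroblast sums fell (256, 232 and 202 CPM). In control, replicate 1 had the highest Apom and stellate and fibroblast sum, and replicate 3 the highest bile duct sum. The part of these cells in the Apom values was not tested. The smallest gap was between DKO replicate 1, at 123.2 CPM, and control replicate 1, at 122.97 CPM. The means were 160 ± 43.3 CPM in DKO, 158 ± 22.3 in MttpLKO and 102 ± 19.2 in control (SD, n = 3 each). The log2 fold change was 0.63 ± 0.20 SE for MttpLKO over control (edgeR adjusted p = 0.411) and 0.64 ± 0.20 SE for DKO over control (edgeR adjusted p = 0.261). These comparisons share the control libraries. DKO over MttpLKO was 0.01, with an interval from -0.42 to 0.45.

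**Figure D3:**
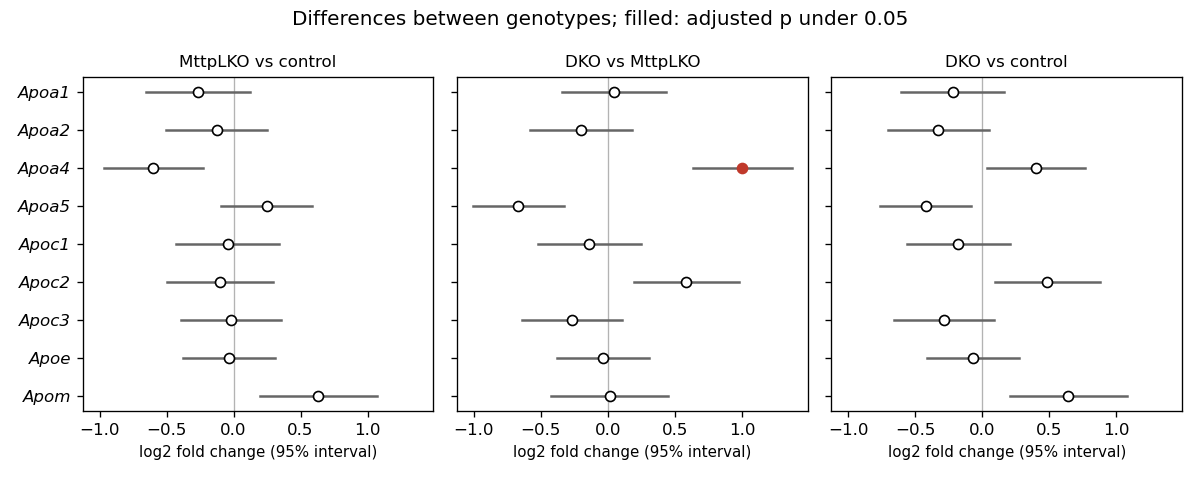
Log2 fold change (horizontal axis) with its 95% interval for each gene in MttpLKO against control, DKO against MttpLKO and DKO against control; a filled point has an edgeR adjusted p under 0.05. Apoa4 in DKO against MttpLKO, at 1.00, is the filled point, and Apom has about the same value, 0.63 and 0.64, in both comparisons with control.

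Counted by groups that did not overlap, 2 of the 9 genes separated DKO from MttpLKO (Apoa4 higher and Apoa5 lower in DKO), where 11.5% of all genes did (5.67% higher and 5.83% lower). Of the 9, 2 separated MttpLKO from control (Apom higher and Apoa4 lower in MttpLKO), where 14.3% of all genes did (7.27% higher and 6.99% lower), and 3 separated DKO from control (Apoc2 and Apom higher and Apoa5 lower in DKO), where 18.1% did (8.95% higher and 9.18% lower). The standard error of the members' log2 fold changes ran from 0.153 to 0.198 over the comparisons, and its median over all genes was 0.184 to 0.185. Apoa4, the member with the fewest counts, had 1372 to 3199 counts per library.

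In level per length (RPKM) the 9 genes covered a wide range. Apoa2 averaged 19892 RPKM over the 9 libraries and Apoa4 48.0 RPKM, a ratio of 415. In every genotype the order of mean RPKM ran Apoa2, Apoe, Apoc1, Apoa1 and Apoc3 from the top and ended with Apom and Apoa4. In DKO, Apoc2 stood sixth at 541 ± 75.7 RPKM and Apoa5 seventh at 448 ± 73.4 RPKM, with overlapping ranges. In MttpLKO and control Apoa5 came before Apoc2, at 712 ± 69.5 against 360 ± 91.7 RPKM in MttpLKO and 601 ± 80.6 against 386 ± 41.3 RPKM in control (SD, n = 3), and the ranges were apart. Among the other neighbours in the order, Apoa2 and Apoe overlapped in DKO and in MttpLKO but not in control, and Apoc1 and Apoa1 overlapped in DKO and in control but not in MttpLKO. All other neighbours were apart in each genotype.

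**Figure D4:**
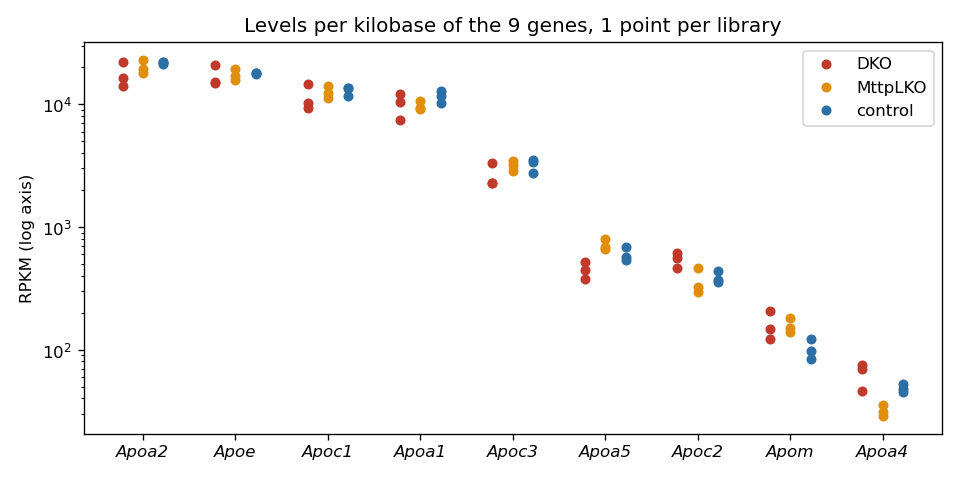
RPKM (log vertical axis, library sizes scaled by TMM) of the 9 genes in falling order of their mean, 1 point per library, for DKO, MttpLKO and control. Levels run from an average of 19892 RPKM for Apoa2 to 28.9 to 75.0 RPKM for Apoa4, and the points of Apoa5 and Apoc2 change places in DKO.

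Together the 9 genes took 5.94%, 8.14% and 5.89% of all counts in the DKO libraries, 6.45%, 7.25% and 6.92% in MttpLKO and 7.33%, 7.41% and 7.49% in control. DKO replicate 2 held the highest DKO value for 7 of the 9 genes, and DKO replicates 1 and 3 gave both the lowest shares of the series. Mitochondrial transcripts took 7.20%, 5.84% and 7.96% of counts in DKO replicates 1, 2 and 3, 5.61% to 6.24% in MttpLKO and 6.08% to 6.66% in control. The DKO libraries with lower apolipoprotein shares were those with higher mitochondrial shares. Hepatocyte markers summed to 56886, 69147 and 84482 CPM in DKO replicates 1, 2 and 3. The part of either in the results was not tested.

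Some members had much the same profile across libraries. Taking each gene as its log2 CPM (with 0.5 added) less its own mean over the 9 libraries, Apoc1 and Apoc3 differed by a root mean square of 0.08, the closest pair, although they lie on chromosomes 7 and 9. Apoa2 and Apoe differed by 0.12. Apoa4 was nearest to Apoc2 among the members, at 0.26, and farthest from its cluster neighbour Apoa5, at 0.69. Among 9332 genes with a mean of at least 5 CPM, those closest to Apoa4 were Ddah1, Rps6ka1, Mgll, Wnk4 and Nrp1, at 0.204 to 0.219 over the 9 libraries. They were picked for this likeness, which fixes a low level in MttpLKO, so their levels are a description with no test. Mgll, a monoglyceride lipase gene, had 454 ± 27.9 CPM in DKO, 289 ± 43.2 in MttpLKO and 390 ± 22.3 in control (SD, n = 3 each).

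**Figure D5:**
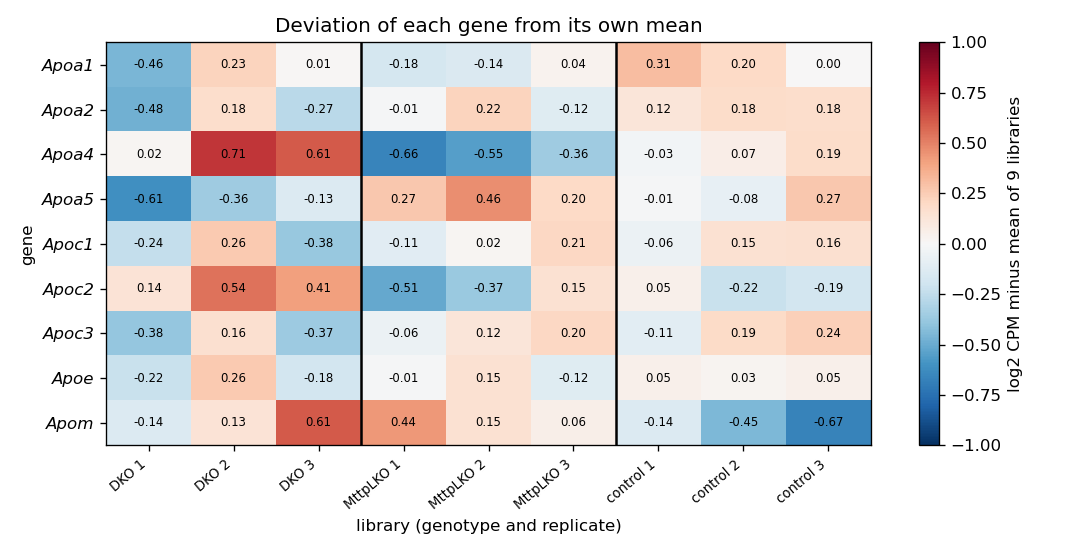
Log2 CPM of each gene (rows) less its own mean over the 9 libraries, by library (columns, DKO, MttpLKO and control), with the value printed in each cell. Apoa4 is at -0.66 to -0.36 in MttpLKO and up to 0.71 in DKO, and DKO replicate 1 is at -0.61 to -0.22 for Apoa1, Apoa2, Apoa5, Apoc1, Apoc3 and Apoe.

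Other lipoprotein genes were described by lists. Apob itself, encoding the structural protein of VLDL, read 2106, 1704 and 2457 CPM in DKO, 2182, 1873 and 1666 CPM in MttpLKO and 1963, 1889 and 1796 CPM in control. Its log2 fold change was 0.13 for DKO over MttpLKO and 0.02 for MttpLKO over control (edgeR adjusted p = 0.843 and 0.997). Of 20 genes of VLDL assembly and secretion, edgeR called Mttp, deleted by design, lower in both deleted genotypes against control and 0 in DKO against MttpLKO, where 4 had an unadjusted p under 0.05. There DESeq2 called Tm6sf2, whose product acts in VLDL lipidation, lower and limma-voom called none. Tm6sf2 read 37.4 CPM on average in DKO and 56.9 in MttpLKO (edgeR adjusted p = 0.0794). DESeq2 also called Pdia4, an ER chaperone gene, higher in DKO than in control.

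Of 14 tested genes of other lipoprotein proteins, edgeR and limma-voom called 0 in each comparison, with 3 at an unadjusted p under 0.05 in DKO against MttpLKO, 0 in MttpLKO against control and 3 in DKO against control. DESeq2 called Saa2, an acute phase HDL protein gene, higher in DKO in both its comparisons. It read 251, 12.3 and 473 CPM in DKO, 13.0, 35.8 and 18.0 CPM in MttpLKO and 22.2, 20.2 and 22.3 CPM in control. DKO replicates 1 and 3, the libraries with the lowest apolipoprotein shares, carried the difference, and DKO replicate 2 lay below every other library (edgeR adjusted p = 0.205 against MttpLKO and 0.179 against control). In MttpLKO against control the smallest p was that of Pltp, the phospholipid transfer protein gene, at 17.4 CPM in MttpLKO and 24.8 in control (edgeR adjusted p = 0.73). Of 10 genes of HDL formation and remodelling, edgeR, DESeq2 and limma-voom called 0 in each comparison, and 3, 1 and 0 had an unadjusted p under 0.05 in DKO against MttpLKO, MttpLKO against control and DKO against control. Scarb1, the HDL receptor gene, had the smallest p in DKO against MttpLKO, with means of 186 and 139 CPM (edgeR adjusted p = 0.278). It was also the smallest in DKO against control, at 186 and 161 CPM (edgeR adjusted p = 0.562). In MttpLKO against control it was Bmp1, whose protease trims the apolipoprotein A-I precursor, at 180 CPM in MttpLKO and 142 in control (edgeR adjusted p = 0.448).

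Of 16 genes for the remodelling and uptake of triglyceride-rich lipoproteins, edgeR and limma-voom called 0 in each comparison, and 6, 2 and 4 had an unadjusted p under 0.05 in the same order. DESeq2 called Sdc1, the gene of the remnant-binding proteoglycan syndecan-1, higher in MttpLKO than in control. Sdc1 averaged 161 CPM in MttpLKO and 104 in control (edgeR adjusted p = 0.14), and 143 CPM in DKO (edgeR adjusted p = 0.261 against control).

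Of 28 genes for transcription regulators known to act on apolipoprotein genes, edgeR, DESeq2 and limma-voom called 0 in each comparison. At an unadjusted p under 0.05 there were 3 in DKO against MttpLKO, 1 in MttpLKO against control and 0 in DKO against control. Nr0b2, the nuclear corepressor SHP, averaged 45.5 CPM in MttpLKO and 84.2 in control (edgeR adjusted p = 0.333). It read 55.1, 56.8 and 24.6 CPM in MttpLKO, lowest in replicate 3, the library that stood apart, and 77.2, 88.8 and 86.7 CPM in control. These ranges did not overlap, as for 14.3% of all genes in that comparison. Ppargc1a, a metabolic coactivator gene, averaged 9.04 CPM in DKO and 16.1 in MttpLKO (edgeR adjusted p = 0.386). Usf1, an E-box binding factor gene, averaged 54.0 CPM in DKO and 42.6 in control (edgeR adjusted p = 0.511). Around the 9 genes themselves, 64 others lay within 100 kb in the deposited coordinates and 44 were tested. EdgeR and limma-voom called 0 of the 44 in each comparison, with 4, 5 and 5 at an unadjusted p under 0.05 in DKO against MttpLKO, MttpLKO against control and DKO against control. DESeq2 called Nectin2, a cell adhesion gene on chromosome 7, higher in DKO than in MttpLKO.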

How the data were processed

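The authors deposited, for each of 9 liver libraries, a table of 41388 genes with whole-number read counts, CPM and RPKM, per the file headers. The authors' CPM and RPKM follow from the counts and gene lengths (largest differences 5.1e-11 and 4.7e-11) and were not tested. Per the submitters' processing notes the tools were STAR 2.0.4b, Subread and featureCounts 1.4.5, whose roles they leave unstated. RNA was extracted with Trizol, DNase-treated and oligo(dT)-selected, per the labels' protocols. How strand and multi-mapping reads were treated is not stated in those notes.

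Symbols came from GENCODE M21, which named 40254 genes. Genes were kept by filterByExpr (minimum count 10, 14741 genes), scaled by TMM and tested by edgeR 4.0.16 (R 4.3.3) from the counts, with all 9 libraries in 1 model of 3 genotype means. Values are called at an adjusted p under 0.05 over all genes tested. Standard errors were derived by dividing each log2 fold change by the square root of its F value. Printed CPM and RPKM use TMM-scaled library sizes. DESeq2 1.42.0 and limma-voom (limma 3.58.1) were alternatives, with other scaling and filters, the 6 compared libraries alone, a replicate block and leaving out each library. Common dispersion came to 0.0335 (biological coefficient of variation 18.3%).

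Replicate pairs had a chi-square of 19.6 to 64.9 per degree of freedom, above sampling noise. That they are separate pools rests on the labels, and p-values judge genotype differences against the spread between pools. On simulated counts for MttpLKO against control, with 14547 genes tested, 57.7% of 2-fold and 85.9% of 4-fold changes were called, and 9 of 150 calls were false. The changed genes were drawn at random from all genes kept, at any level, so these rates do not describe the 9 members. The members and lists were chosen with earlier results of these data known. The rule for named genes took the 9 members, Mttp, Fabp1 and Apob; called genes of 5 lists, or the smallest p where none was called; called genes within 100 kb of a member; and the 5 genes nearest to a called member. One result under this rule is not reported here. Apoc4 and the genes named from DESeq2 calls fall outside it and were chosen after their values were seen.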

Additional observations from a re-analysis of the deposited data

How the results depend on the processing

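Over 27 pairs of gene and comparison and 18 alternatives, 461 of 486 values kept their direction and side of the threshold. The count of called members in DKO against MttpLKO, 1 in the reported fit, was 2 with no low-count filter and 2 with DESeq2 (Apoa4 and Apoa5 in both), 0 with only the 6 libraries compared, and 0 to 1 when single libraries were left out. In the other comparisons it was 0 throughout. Direction changed in 16 values of 8 pairs, none of them called. Among these Apom in DKO against MttpLKO was -0.0102 with upper quartile scaling and -0.0118 with limma-voom, and -0.21 to 0.17 when single libraries were left out. Leaving out single libraries gave, in MttpLKO against control, -0.14 to 0.0278 for Apoc1, -0.33 to 0.0244 for Apoc2, -0.12 to 0.0446 for Apoc3 and -0.11 to 0.0232 for Apoe. It gave -0.10 to 0.21 for Apoa1 and -0.20 to 0.0541 for Apoe in DKO against MttpLKO, and -0.23 to 0.0145 for Apoe in DKO against control. The causes were not tested. Other scaling moved no member's log2 fold change by more than 0.0253. The labels do not say that the replicate numbers pair the pools. Deviations of same-numbered libraries correlated at -0.247 to 0.083, and 0 of 9 libraries correlated best with its own number. With so few libraries per genotype these values cannot show that no pairing exists. With the replicate block the called members were 1, 0 and 0 in DKO against MttpLKO, MttpLKO against control and DKO against control, and Apoa4 had an edgeR adjusted p = 0.0182. Over all genes, 43, 35 and 40 were called with the block, against 59, 51 and 49 without it; DESeq2 called 214, 165 and 256, and no low-count filter 180, 171 and 201. With only the 6 libraries compared it was 34, 50 and 78, and with single libraries left out 22 to 73, 14 to 54 and 15 to 100; the lowest were without MttpLKO replicate 2 (22) and without control replicate 2 or 3 (14 and 15), and the highest without MttpLKO replicate 3 (100).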
